A study of Homo sapiens with 6 samples.

Results

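The protein-coding genes of chromosome 19 whose name is ZNF followed by a number were taken from the gene table of a comparative RNA-seq study of LN229 cells, by gene name, chromosome and biotype alone. There were 239 of them among 33841 listed genes, and a further 230 genes of the same naming and biotype lay on other chromosomes. LN229 is an established human glioblastoma cell line. RNA was sequenced from parental cells (WT) and from cells in which PARP3, a mono-ADP-ribosyltransferase of the PARP family, had been disrupted with a Cas9 nickase (PARP3-KO), with 3 biological replicates per genotype and no other treatment. The methods place the guides in exon 2 and exon 5, while the labels name a disruption from exon 2 to exon 9. Knockout lines were grown from single cells, so the properties of a clone and the loss of PARP3 cannot be told apart, and the clone that was sequenced is not named in the sources used here.

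Most ZNF genes of chromosome 19 code for proteins with a row of C2H2 zinc fingers, small folds around a zinc ion that each read a few bases of DNA. Many also carry a KRAB domain, which recruits TRIM28 (KAP1) and, through it, the histone methyltransferase SETDB1, HP1 proteins and H3K9me3. The family is best known for silencing transposable elements, and it grew by repeated tandem duplication, which left dense clusters of related genes along both arms of the chromosome. Translation of the canonical transcripts (GENCODE 44) gave a median of 12 C2H2 fingers per protein, with a range from 1 to 36, and a KRAB pattern in 201 of 237 members with a coding canonical transcript. ZNF208, ZNF729 and ZNF91 had the longest rows, with 36, 34 and 31 fingers.

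The promoters of the members carry a record of this duplication. They are shown here for some of the genes called in the comparison of genotypes below. ZNF626, ZNF208 and ZNF536 were called in both edgeR fits. ZNF257, ZNF492, ZNF442 and ZNF671 were called in edgeR only with the replicate number as a block. ZNF43, the neighbour of ZNF208, was called in neither fit. ZNF30, called in both, has no promoter in the RefSeq table used. Each line gives the 120 bases before the gene start, from RefSeq (GRCh38.p14), read 5′ to 3′ on the strand of the gene. Capitals mark the letters CCAATCA, the core of a CCAAT box, a promoter element bound by the factor NF-Y. The letters were chosen after these sequences had been read, and were searched on both strands.
ZNF626 (chr19:20661572-20661691, minus strand): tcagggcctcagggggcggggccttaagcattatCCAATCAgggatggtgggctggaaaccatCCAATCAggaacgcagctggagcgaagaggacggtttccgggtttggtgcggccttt
ZNF43 (chr19:21836183-21836302, minus strand): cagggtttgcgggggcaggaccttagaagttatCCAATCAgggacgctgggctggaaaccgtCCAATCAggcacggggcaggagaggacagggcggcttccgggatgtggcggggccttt
ZNF208 (chr19:22010944-22011063, minus strand): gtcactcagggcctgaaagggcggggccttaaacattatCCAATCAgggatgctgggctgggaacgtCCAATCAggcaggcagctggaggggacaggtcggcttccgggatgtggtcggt
ZNF257 (chr19:22052364-22052483, plus strand): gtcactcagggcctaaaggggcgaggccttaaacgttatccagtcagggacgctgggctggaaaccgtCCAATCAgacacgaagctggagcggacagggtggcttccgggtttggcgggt
ZNF492 (chr19:22634204-22634323, plus strand): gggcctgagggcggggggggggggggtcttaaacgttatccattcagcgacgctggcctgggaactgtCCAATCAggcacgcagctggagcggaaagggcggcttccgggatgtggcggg
ZNF442 (chr19:12365684-12365803, minus strand): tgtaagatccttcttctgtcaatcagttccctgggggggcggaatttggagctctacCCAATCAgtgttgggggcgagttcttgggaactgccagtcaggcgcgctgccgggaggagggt
ZNF536 (chr19:30225472-30225591, plus strand): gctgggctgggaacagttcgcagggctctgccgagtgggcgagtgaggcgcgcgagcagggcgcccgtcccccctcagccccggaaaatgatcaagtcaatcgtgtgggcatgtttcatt
ZNF671 (chr19:57727625-57727744, minus strand): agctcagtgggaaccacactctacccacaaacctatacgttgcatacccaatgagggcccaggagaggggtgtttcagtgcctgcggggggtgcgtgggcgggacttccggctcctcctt

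The first 5 of these genes lie in the same cluster, and the 250 bases before their starts were identical at 81.0% to 88.5% of aligned positions. ZNF208 and ZNF43 matched at 83.5%, and ZNF208 and ZNF626 at 88.5%. Against ZNF536, which belongs to no cluster, the same 5 promoters matched at 54.7% to 64.4%.

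By position, the members fell into 9 clusters with 9 scattered members between them, where a cluster is a run of at least 5 members whose neighbouring starts (hg38) are at most 1 Mb apart. Cluster 1 ran from ZNF554 to ZNF77 (5 members), cluster 2 from ZNF557 to ZNF846 (14), cluster 3 from ZNF653 to ZNF791 (26) and cluster 4 from ZNF101 to ZNF254 (36). These and 1 scattered member made up the 82 members of the short arm. On the long arm, cluster 5 ran from ZNF302 to ZNF792 (5 members), cluster 6 from ZNF565 to ZNF573 (24) and cluster 7 from ZNF575 to ZNF296 (24). Cluster 8 ran from ZNF175 to ZNF331 (39), and cluster 9, the one nearest the end of the long arm, from ZNF628 to ZNF446 (57).

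The CCAATCA letters were unevenly spread over the clusters. Among the 207 members with a promoter in the RefSeq table (300 bases around the start, 250 of them before it), they were present in 61 (29.5%), against 7.28% of all 27305 promoters of the table. They were found in 28 of 28 promoters of cluster 4, 22 of 24 of cluster 3 and 4 of 5 of cluster 1. In the other clusters they were present in at most 4 promoters, and clusters 2, 5 and 6 had none. At least 2 copies were found in 4 of the 5 promoters of cluster 1, 16 of the 28 of cluster 4 and 2 of the 24 of cluster 3, and in none of the other clusters. Cluster 4 also had the fewest CpG pairs per promoter, with a median of 10, against medians of 16 to 26 in the other clusters and 14 over all promoters. A match of letters is a description of the sequence and shows no binding.

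**Figure D1:**
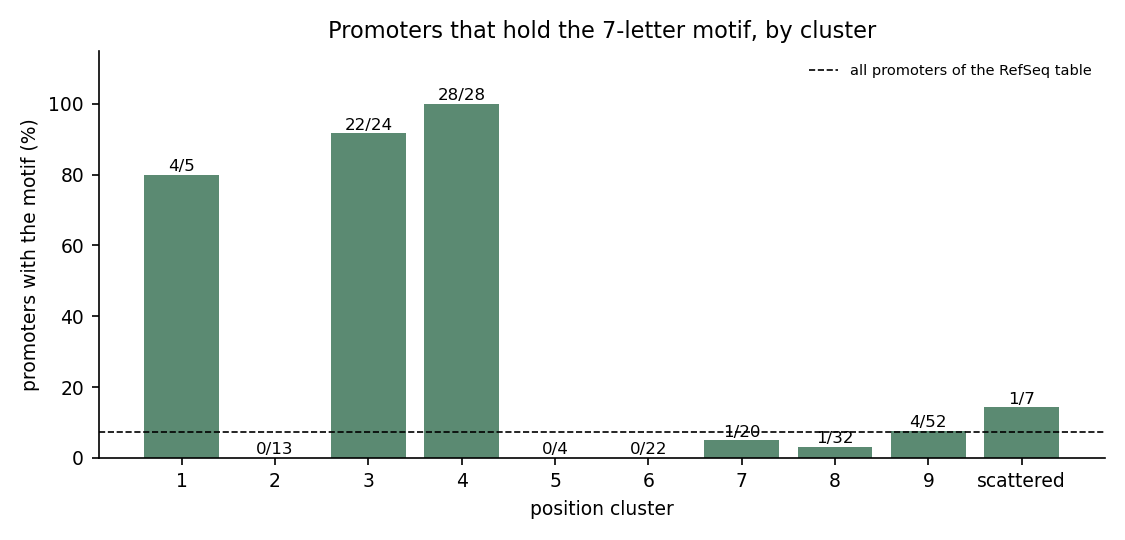
Share of promoters (%, y axis) in which the 7 letters shown in capitals in the sequences occur on either strand, for each position cluster and the scattered members (x axis), with the number of promoters above each bar and the share over all promoters of the table as a dashed line. The bars of clusters 1, 3 and 4 stand at 80.0%, 91.7% and 100%, and that of the scattered members at 14.3%, against 7.28% for all promoters.

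The libraries held 29692065 to 46010369 counts on genes, so that 3 counts correspond to 0.0673 to 0.0996 CPM (counts per 1000000, with library sizes scaled by TMM). Such limits and the counting intervals below cover counting error, and other error is not covered by them. The intervals of log2 fold changes come from the edgeR fits and include the spread between these cultures. Of the markers of glioblastoma or glial cells, 7 of 8 were tested and their summed level was 5070 to 6060 CPM. Most of this was VIM, with means of 3760 CPM in WT and 4130 CPM in PARP3-KO, while OLIG2 had 13.7 and 9.53 CPM. The astrocyte marker GFAP had 1 to 17 counts. The glial marker S100B was lower in PARP3-KO (log2 fold change -1.06, adjusted p 0.0256 in edgeR). With the replicate number as a block, 4 of the 7 tested markers were lower (S100B, OLIG2, SOX2 and CD44), 57.1% against 12.5% of all tested genes. The part of this shift in the results below was not tested. Summed markers of immune cells were at most 0.564 CPM and of endothelial cells at most 0.822 CPM, and the immune marker PTPRC had at most 4 counts in any library. Summed neuron markers were at 55.5 to 118 CPM, mostly from SYT1, with RBFOX3 at no more than 1 count, and the epithelial marker KRT8 had a mean of 14.6 CPM in WT and was lower in PARP3-KO, at 8.73 CPM (log2 fold change -0.74, adjusted p 0.0194 in edgeR), while EPCAM and CDH1 had at most 3 counts in any library. PARP3 itself had 34.9, 22.4 and 24.3 CPM in WT and 19.1, 22.5 and 19.5 CPM in PARP3-KO, overlapping ranges that do not check the labels. Its log2 fold change had an adjusted p of 0.307 without and 0.0469 with the replicate block in edgeR. Within a genotype, replicate 1 differed from replicates 2 and 3 by a chi-square per degree of freedom of 54.8 to 105 over genes. Between replicates 2 and 3 it was 4.12 and 12.1. Same-numbered libraries deviated together, most clearly those of replicate 1, while the pairing of replicates 2 and 3 could not be settled. The comparison below is therefore given without and with the replicate number as a block.

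The members were expressed at low to moderate levels. Of the 239, 221 had at least 10 counts in every library, 218 had a mean of at least 1 CPM and 139 a mean of at least 10 CPM. Together they held 0.396% of the counts. Divided by the median transcript length that the gene table gives, the median level was 8.08 CPM per kb. That length can fall short of the coding sequence: it was 781 bases for ZNF208, whose protein has 1280 residues. It was 571 bases for ZNF146 and 7625 for ZNF850, so ranks between genes by this measure depend on it. ZNF146, whose protein consists of little else than zinc fingers, was the highest at 316 CPM per kb. It had 167, 193 and 184 CPM in WT and 168, 186 and 186 CPM in PARP3-KO, with overlapping ranges. ZNF121 followed at 103 CPM per kb, then ZNF347, ZNF528, ZNF134, ZNF791, ZNF28 and ZNF562 between 62.8 and 85.6 CPM per kb. By cluster, the median level was highest in cluster 8, at 20.8 CPM per kb, and lowest in cluster 1, at 2.90 CPM per kb.

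At the other end, 5 members had at most 3 counts in every library: ZNF556, ZNF177, ZNF99, ZNF541 and ZNF154. Reads of 50 bases that fit several genes can be lost or misplaced. Of these 5, ZNF177 shared 95.4% of the 50-base windows of its canonical transcript with transcripts of other genes, and the other 4 at most 6.62%. The median member shared 3.10% of these windows, but 7 members (ZNF177, ZNF781, ZNF788, ZNF709, ZNF564, ZNF625 and ZNF20) shared over 70% of them. These 7 had a median of 1.43 CPM per kb, against 8.48 CPM per kb for the other members. Among them, ZNF788 stood at 53.0 CPM per kb with 94.3% of its windows shared. Shared windows also include those of overlapping genes, as for ZNF177 and ZNF559-ZNF177. The limit of 70% was chosen after the values were seen. The parts of lost reads and of the transcript length used as divisor in these levels were not tested. Another listed gene overlaps 75 members on the same strand, where reads that fit both were not counted.

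Whether the loss of PARP3 came with changes in this family was asked by testing every gene, in edgeR, for a difference between PARP3-KO and WT (Benjamini-Hochberg adjusted p under 0.05 over 17144 genes). The summed level of the family overlapped between the genotypes, while 4 genes fell, ZNF208 and ZNF536 among them to almost no reads. The summed level of the members was 3986, 3999 and 3944 CPM in WT and 4069, 3958 and 3913 CPM in PARP3-KO. The means were 3977 ± 28.9 and 3980 ± 80.1 CPM (SD, n = 3 each), and the ranges overlapped. Of the 228 members that passed the filter on low counts, 4 were lower in PARP3-KO and 0 were higher, whereas 3.33% of all tested genes were lower and 1.36% higher. At an unadjusted p under 0.05, 9 of the 228 members were lower and 6 higher, against 9.03% and 7.23% of all tested genes. DESeq2 gave an adjusted p for 234 members and called 7 of them lower and 0 higher. Of all 22686 genes with an adjusted p in DESeq2, 3.84% were lower and 2.09% higher. The median log2 fold change (PARP3-KO over WT) was 0.016, against -0.006 over all tested genes.

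With the replicate number as a block, 10 members were lower and 7 higher, while 12.5% of all tested genes were lower and 11.8% higher. The share of members called in either direction was thus 7.46%, below the 24.3% of all tested genes, the 25.1% of ZNF genes of other chromosomes (219 tested) and the 18.8% of the other protein-coding genes of chromosome 19 (727 tested). Without the block these shares were 1.75%, 4.70%, 5.48% and 3.16%. The members were also measured at lower levels, with a median of 13.5 CPM against 18.0, 19.5 and 25.0 CPM in those sets, and the part of this in the shares was not tested. For 218 of the 228 members (95.6%) the 95% interval of the log2 fold change, with the block, lay within 1 on either side of 0, as it did for 85.8% of all tested genes. In CPM, all PARP3-KO libraries lay below all WT libraries for 16 of the 228 and above them for 13, against 12.0% and 10.8% of all tested genes. These sets are described by their counts, and the difference between them was not tested.

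**Figure D2:**
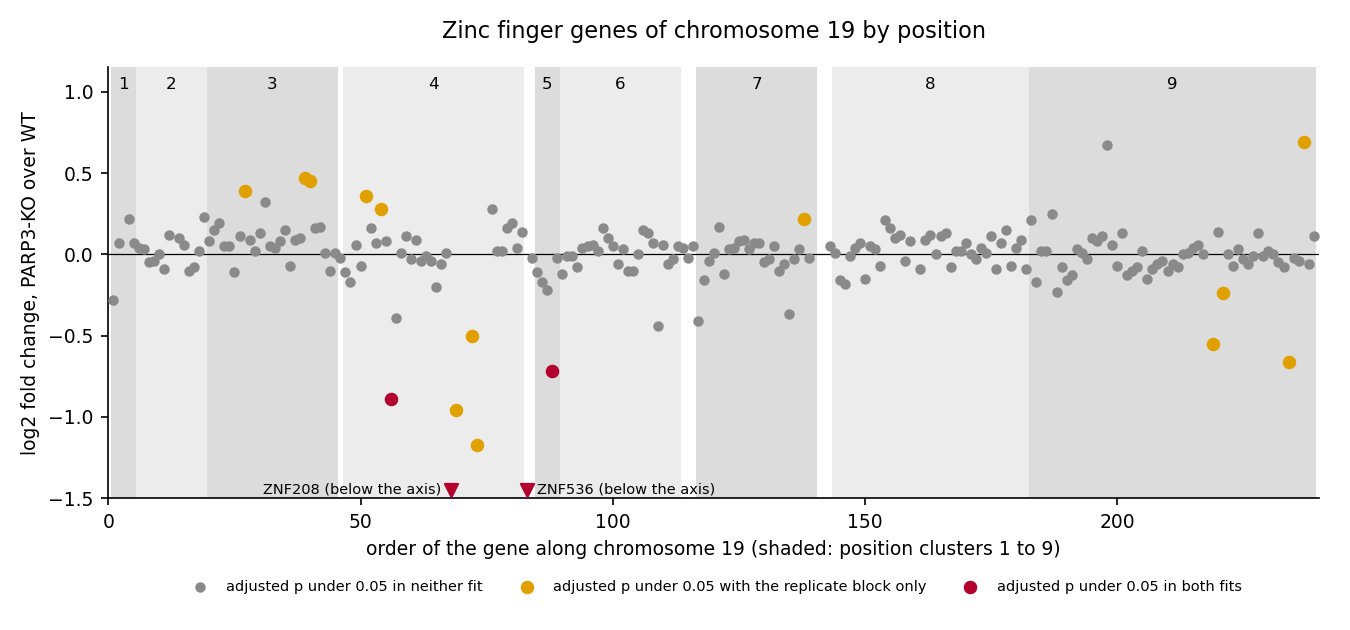
Log2 fold change of the 228 tested genes (y axis, PARP3-KO over WT, without the block) in their order along chromosome 19 (x axis), with the 9 position clusters shaded and coloured points for genes called at an adjusted p under 0.05 in both fits (red) or with the block only (yellow). Most points lie close to 0, and in cluster 4 the genes called lower number 2 without the block and 5 with it, among them ZNF208, drawn with ZNF536 as triangles below the axis.

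ZNF208, on the minus strand of chromosome 19 from 21932958 to 22010949 in cluster 4, was close to absent from PARP3-KO. It had 112, 109 and 120 counts in WT and 1, 1 and 2 in PARP3-KO. The summed counts gave an 80.3-fold higher level in WT, with a 95% counting interval from 31.1 to 296 (exact binomial), and the adjusted p was 0.000127 in edgeR. The ranges were far apart, and the gene was called in every fit that left out 1 library. An unnamed transcript within it on the same strand, AC003973.3, had 51, 68 and 75 counts in WT and 0 in every PARP3-KO library (adjusted p 0.00191 in edgeR). The ZNF208 transcript shares 26.4% of its windows with that transcript. Reads that fit both were counted for neither, so the counts of the genes are of separate reads and those of ZNF208 can fall short. Whether these reads come from separate transcripts was not tested.

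ZNF536 is a zinc finger gene of the brain known as a repressor of neuronal differentiation, with no KRAB pattern, and it lies alone on the long arm from 30228290 to 30713538. It had 60, 41 and 65 counts in WT and 0, 2 and 0 in PARP3-KO. The level was 78.2-fold higher in WT, with a counting interval from 21.3 to 651, and the adjusted p was 0.00254 in edgeR. That fold rests on the 2 counts of PARP3-KO replicate 2. Without this library the fitted log2 fold change moved from -6.07 to -8.72 (adjusted p 0.0173 in edgeR) and the level was at least 15.7-fold lower, against a floor of 3 counts per library. Its next gene on the far side, TSHZ3, another zinc finger transcription factor, had 16, 17 and 15 counts in WT and 6, 4 and 6 in PARP3-KO (adjusted p 0.0613 in edgeR, 0.0197 with the block). The next gene on the near side, URI1, had a log2 fold change of -0.02 ± 0.06 (SE).

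ZNF626 (cluster 4, 20620061 to 20661596) and ZNF30 (cluster 5, 34926903 to 34945170), both KRAB genes, fell by smaller amounts. ZNF626 had 3.70, 4.05 and 4.61 CPM in WT and 2.12, 2.24 and 2.28 CPM in PARP3-KO, a log2 fold change of -0.89 ± 0.15 (SE; adjusted p 0.0182 in edgeR). ZNF30 had 8.74, 7.36 and 7.46 CPM in WT and 5.21, 4.40 and 4.71 CPM in PARP3-KO, a log2 fold change of -0.72 ± 0.13 (SE; adjusted p 0.0284 in edgeR). For both genes every PARP3-KO library lay below every WT library. With 1 library left out, the adjusted p of ZNF626 was 0.0516 to 0.0974 in 5 of 6 fits and stayed under the threshold only without WT replicate 1, and that of ZNF30 was 0.0662 to 0.140 in 4 of 6. Their neighbours did not pass the test in either fit, with log2 fold changes of 0.08 (ZNF737) and -0.39 (ZNF66) beside ZNF626 and of -0.22 (ZNF599) and -0.02 (ZNF792) beside ZNF30.

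**Figure D3:**
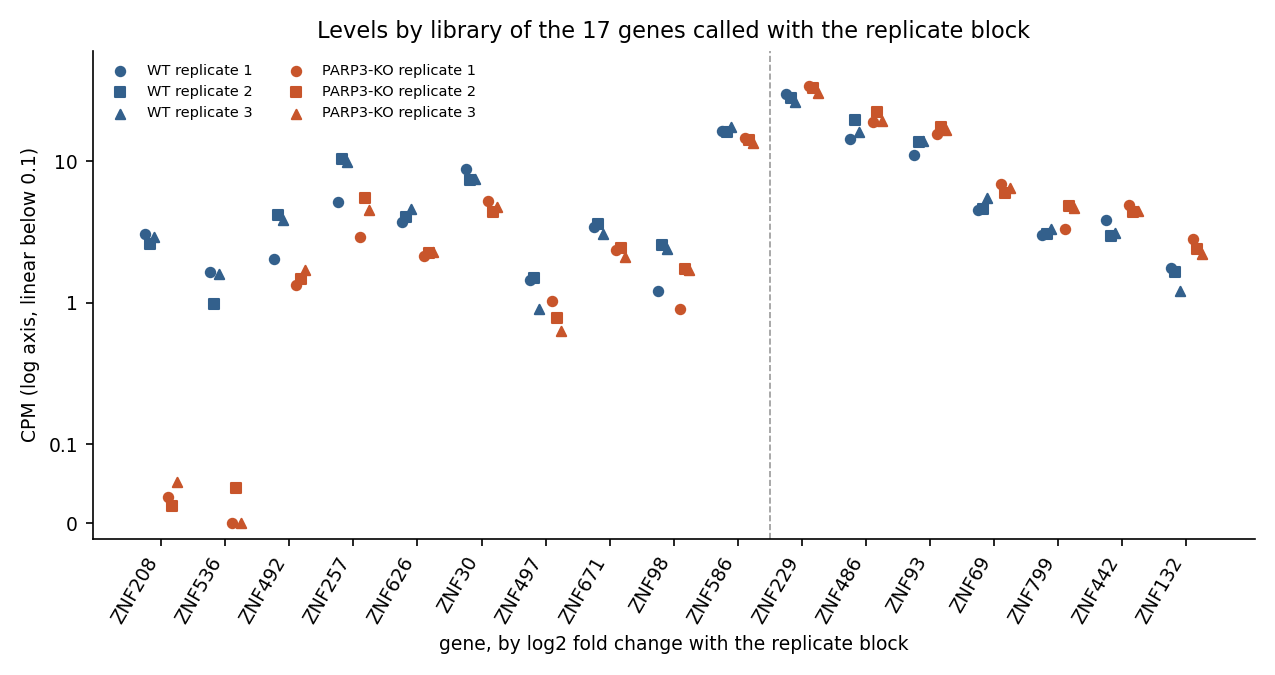
CPM in each of the 6 libraries (y axis, log scale, linear below 0.1) of the 17 genes called with the replicate block (x axis, ordered by log2 fold change; genes left of the dashed line were lower in PARP3-KO). ZNF208 and ZNF536 drop to 0.0529 CPM or less in every PARP3-KO library, whereas the other 15 genes lie between 0.635 and 33.6 CPM in all 6 libraries.

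The fit with the block added 6 genes to those that were lower. Among them were 3 neighbours of ZNF208, ZNF257, ZNF98 and ZNF492, of which ZNF257 and ZNF98 are named here after their values were seen. ZNF257 had 5.12, 10.3 and 9.78 CPM in WT and 2.89, 5.52 and 4.53 CPM in PARP3-KO. Replicate 1 was the lowest of each genotype, so the ranges overlapped, but within same-numbered pairs the log2 ratio was -0.81, -0.89 and -1.09 (with 0.1 CPM added). Its log2 fold change was -0.96 ± 0.10 with the block (SE; adjusted p 8.19e-05 in edgeR) and its adjusted p was 0.199 without it. ZNF492 had 2.03, 4.19 and 3.85 CPM in WT and 1.33, 1.46 and 1.69 CPM in PARP3-KO, ranges that did not overlap, and a log2 fold change of -1.17 ± 0.18 with the block (SE; adjusted p 0.000789 in edgeR; 0.0829 without). ZNF98 had 1.21, 2.55 and 2.39 CPM in WT and 0.896, 1.73 and 1.69 CPM in PARP3-KO, overlapping ranges. Its adjusted p was 0.0400 with the block and 0.599 without it in edgeR. ZNF98 shares 54.2% of its windows with ZNF492, so their counts are uncertain. The further 3 were ZNF671, ZNF586 and ZNF497 (named after its values were seen) of cluster 9, with log2 fold changes of -0.55, -0.24 and -0.67 and adjusted p of 0.0110, 0.0340 and 0.0382 with the block in edgeR.

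ZNF208, ZNF257, ZNF98 and ZNF492 lie in the stretch of cluster 4 that ends with ZNF728, which was chosen after the values were seen and is described with no test. Of the 8 members there, 7 had a lower mean CPM in PARP3-KO. ZNF676 had 7, 12 and 12 counts in WT and 0 in every PARP3-KO library, at least 3.13-fold lower against a floor of 3 counts per library. ZNF728 had 6, 10 and 3 counts in WT and likewise 0 in every PARP3-KO library. ZNF729 had 4, 10 and 4 counts in WT and 1, 3 and 0 in PARP3-KO, 4.24-fold higher in WT with a counting interval from 1.40 to 17.2. None of these 3 passed the filter on low counts in the main fit. The exception was ZNF99, at 0, 1 and 0 counts in WT and 1 in each PARP3-KO library, too few to compare.

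Of the pseudogenes within the stretch, ZNF849P had 25 summed counts in WT and 10 in PARP3-KO, and ZNF723 had 20 and 2. Neither passed the filter on low counts. The other pseudogenes there had at most 4 summed counts in either genotype and went either way. The genes that flank the stretch did not pass the test in either fit. ZNF100 and ZNF43, before ZNF208, had log2 fold changes of -0.06 ± 0.32 and 0.01 ± 0.21 (SE), and ZNF730 and AC074135.1, after ZNF728, of 0.28 ± 0.31 and 0.07 ± 0.31. With the block the interval of ZNF43 ran from -0.15 to 0.20. A change in the copy number or structure of this stretch in the knockout line was not tested.

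**Figure D4:**
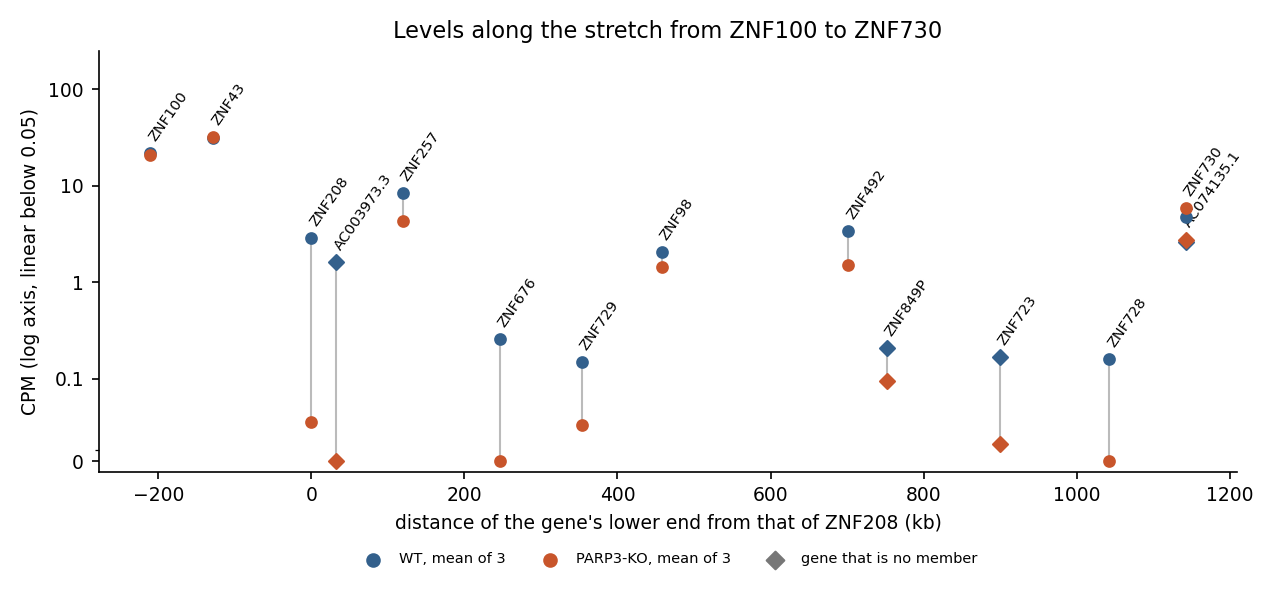
Mean CPM over 3 libraries in WT and PARP3-KO (y axis, log scale, linear below 0.05) of the genes with at least 10 summed counts in either genotype between ZNF100 and ZNF730, against the distance of each gene's lower end from that of ZNF208 (x axis, kb). From ZNF208 to ZNF728, limits chosen after these values were seen, the PARP3-KO point lies below the WT point for every gene drawn. Genes of that stretch with fewer summed counts, which went either way, are not drawn. The points of ZNF100 and ZNF43 on one side and of AC074135.1 on the other nearly coincide, and ZNF730 has the higher point in PARP3-KO.

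The 7 members that were higher in PARP3-KO with the block were changed modestly. They were ZNF69, ZNF442 and ZNF799 of cluster 3, ZNF93 and ZNF486 of cluster 4, ZNF229 of cluster 7 and ZNF132 of cluster 9, with log2 fold changes of 0.22 to 0.69. ZNF93, which is known to silence LINE-1 elements, had 11.1, 13.7 and 13.9 CPM in WT and 15.6, 17.5 and 16.5 CPM in PARP3-KO, with no overlap. Its log2 fold change was 0.36 ± 0.08 with the block (SE; adjusted p 0.00554 in edgeR; 0.173 without). ZNF132 had 1.75, 1.64 and 1.22 CPM in WT and 2.82, 2.40 and 2.22 CPM in PARP3-KO, again apart, and a log2 fold change of 0.69 ± 0.15 (SE; adjusted p 0.00814 with the block in edgeR; 0.124 without). ZNF442 had 3.81, 2.96 and 3.10 CPM in WT and 4.88, 4.36 and 4.45 CPM in PARP3-KO, and ZNF69 4.52, 4.62 and 5.51 against 6.87, 5.97 and 6.43 CPM. Neither pair of ranges overlapped, and the adjusted p with the block were 0.0129 and 0.0248 in edgeR. ZNF799 (adjusted p 0.0306 with the block in edgeR) shares 32.4% of its windows with ZNF443, so its counts are uncertain. ZNF229 and ZNF486 had log2 fold changes of 0.22 ± 0.06 and 0.28 ± 0.07 with the block. ZNF486, named after its values were seen, had overlapping ranges. ZNF91, which is known to silence SVA elements and is also named after its values were seen, had 34.4, 32.6 and 33.2 CPM in WT and 33.5, 34.6 and 33.2 CPM in PARP3-KO, and a 95% interval of its log2 fold change from -0.11 to 0.14 with the block.

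By cluster, to be read against the 24.3% of all tested genes called in either direction, the calls with the block were 5 lower and 2 higher of 32 tested members in cluster 4 (21.9%), 3 higher of 26 in cluster 3 (11.5%), and 3 lower and 1 higher of 56 in cluster 9 (7.14%). Cluster 5 had 1 lower of 5, cluster 7 had 1 higher of 23 and the scattered members had 1 lower of 7. Clusters 1, 2, 6 and 8 had no call among their 4, 13, 24 and 38 tested members in either fit, and at an unadjusted p under 0.05 without the block they had none either. The cluster medians of the log2 fold change ran from -0.168 in cluster 5, where all 5 tested members lay below 0, to 0.091 in cluster 3, where 23 of 26 lay above 0. In mean CPM over all 6 libraries, the called members had lower levels than the rest. The medians were 2.62 CPM for the 10 lower, 5.65 CPM for the 7 higher and 14.1 CPM for the 211 not called. For the 10 lower, these means include the PARP3-KO libraries in which they were called low. A KRAB pattern was found in 7 of the 10, 7 of the 7 and 179 of the 211.

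The 2 replicate 1 libraries differed from the other 4 by cluster, whatever the genotype, and this comparison was chosen after the values were seen. In cluster 4 both lay below the other 4 libraries for 18 of 32 tested members (56.2%), against 23.0% of all tested genes. The summed level of that cluster was 313 CPM in WT replicate 1 and 344 CPM in PARP3-KO replicate 1, against 401 to 436 CPM in the other libraries. In cluster 7 both lay above the other 4 for 16 of 23 members (69.6%), against 22.4% of all tested genes. Its sums were 413 and 414 CPM in the replicate 1 libraries and 361 to 368 CPM in the others. Clusters 5, 9 and 6 also had both above for 60.0%, 46.4% and 45.8% of their tested members and cluster 1 for 2 of 4, as did 32.0% of ZNF genes of other chromosomes. By sums, clusters 1 and 5 stood further above their means in replicate 1 than cluster 7 did. In cluster 8 both lay below for 14 of 38 members (36.8%) and above for 10 (26.3%). In cluster 3 both lay below for 6 of 26 members (23.1%). What the replicate number marks is not given in the sources used here, and its part in these differences was not tested. With both replicate 1 libraries left out, 9 of 227 tested members were lower and 6 higher in PARP3-KO, against 10.1% and 8.91% of all tested genes.

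**Figure D5:**
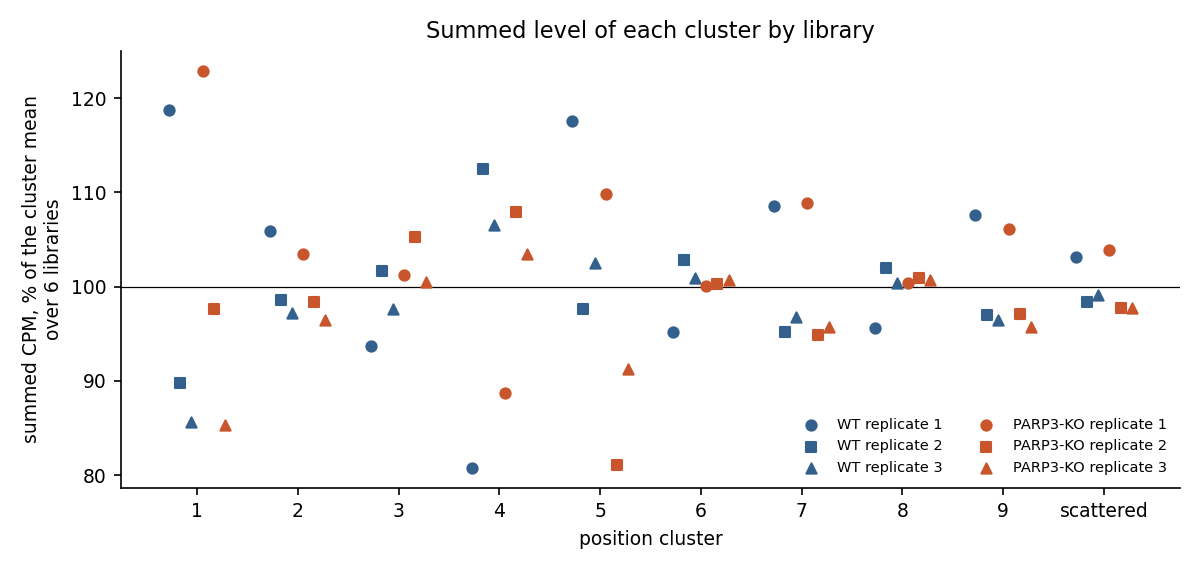
Summed CPM of the members of each cluster in each library, as a percentage of that cluster's mean over the 6 libraries (y axis, not starting at 0), by cluster (x axis), with colour for genotype and symbol for replicate number. In cluster 4 the replicate 1 libraries lie lowest, at 80.8% and 88.8%, and in cluster 7 they lie highest, at 108.6% and 108.9%, and the genotypes overlap in both. In cluster 1 they lie at 118.7% and 122.9% and in cluster 5 at 117.5% and 109.8%.

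KRAB zinc finger proteins act through partners that lie elsewhere in the genome, and the RNA of these partners was measured as a list of 28 genes of TRIM28 repression, H3K9 methylation and heterochromatin. All 28 were tested, and 0 were lower and 0 higher in edgeR without the block. With it, 4 were lower and 1 higher, 17.9% of the list against 24.3% of all tested genes. TRIM28 had a mean of 451 CPM in WT and 441 CPM in PARP3-KO, with a log2 fold change of -0.03, and SETDB1 one of 0.14 (adjusted p with the block 0.701 and 0.0608 in edgeR). The HP1 gene CBX3 was lower at -0.34 (adjusted p 0.000823 with the block in edgeR), and so were PPHLN1, a HUSH complex gene (-0.17), the DNA methyltransferase DNMT3B (-0.35) and the H3K36 methyltransferase NSD1 (-0.19), with adjusted p of 0.0322, 0.0184 and 0.0154 with the block in edgeR. UHRF1, which guides maintenance DNA methylation, was higher at 0.32 (adjusted p 0.00411 with the block in edgeR). The median of the list was -0.04. In bulk RNA, fewer cells with a transcript and less of it per cell cannot be told apart for any of these genes.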

How the data were processed

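RNA of 3 WT and 3 PARP3-KO cultures had been read as single 50-base reads. Per the methods the libraries were from total RNA without ribosomal RNA, whereas the labels name polyA RNA. The authors trimmed reads (cutadapt 1.10), removed ribosomal reads (Bowtie2 2.2.8), aligned to hg38 (STAR 2.5.3a) and deposited raw read counts per Ensembl gene (HTSeq 0.6.1p1, union mode). The strand setting of the counting is not given in the sources used here. Genes at 0 in all libraries are not listed. The deposited table also holds 12 further columns of values per sample and the authors' own DESeq2 comparison (fold changes and p-values), and none were used.

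Counts were tested in R 4.3.3 with edgeR 4.0.16 (TMM, filterByExpr with a minimum count of 10, quasi-likelihood test, Benjamini-Hochberg over all tested genes), without a block. Deviations from genotype means correlated over 17144 genes at 0.788, 0.680 and 0.383 in the pairs of libraries with the same number in the labels, against -0.765 to 0.575 between different numbers. Each same-numbered pair exceeded 0.1, and the numbers were taken to pair the samples in a blocked fit given beside. With replicate 1 apart in both genotypes, deviations of replicates 2 and 3 tend to correlate whatever their pairing. The different-numbered pairs of these replicates also exceeded 0.1, at 0.575 and 0.367. The rule therefore cannot settle the pairing of replicates 2 and 3, on which calls made only with the block rest in part. Replicate 1 stands apart most clearly, and PARP3-KO replicate 3 correlated better with WT replicate 2 (0.575) than with WT replicate 3. No 2 libraries agreed within sampling noise (chi-square per degree of freedom at least 4.12). P-values measure the spread between these cultures only. The alternatives were the block, DESeq2 1.42.0, median-of-ratios size factors, no filter, a mean count of at least 50, a stricter call rule, other cluster gaps, each library left out and, added after the data were seen, both replicate 1 libraries left out. The fits were tested on simulated data, in which DESeq2 called more unchanged genes than edgeR did. Sequence came from GENCODE 44 and RefSeq tables (GRCh38.p14). The KRAB pattern was widened after proteins it missed had been read.

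Members, lists and rules were chosen with earlier results of these data known. Genes named are those called without the block, the 8 lower and 8 higher of smallest p with the block and separated groups, the 8 of highest level per kb, those with at most 3 counts in each library of one genotype and at least 10 in each of the other, cluster ends and the partner list. Not every gene under this rule is described. Others are said to be named after their values were seen.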

Additional observations from a re-analysis of the deposited data

How the results depend on the processing

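The number of members lower in PARP3-KO was 4 without the replicate block, 10 with the replicate block, 7 in DESeq2, 7 without a filter, 1 at an adjusted p under 0.001 with a log2 fold change beyond 1, 9 without both replicate 1 libraries, and 2 to 7 with 1 library left out (7 without WT replicate 1, and 2 without WT replicate 2, WT replicate 3, PARP3-KO replicate 2 or PARP3-KO replicate 3). The number higher was 0 without the block, 7 with the replicate block and 6 without both replicate 1 libraries, and 0 in the other fits, those with 1 library left out included. DESeq2 and the fit without a filter added ZNF676, ZNF492 and ZNF728 to the 4. Over all genes, the number lower was 571 without the block, 2143 with it, 871 in DESeq2 and 724 without a filter. It was 1739 without both replicate 1 libraries and 281 to 606 with 1 library left out. In the same order, 234, 2023, 475, 248, 1536 and 49 to 259 genes were higher. The median log2 fold change of the members was -0.030 to 0.032 with 1 library left out, the lowest without PARP3-KO replicate 1, and the causes of these shifts were not tested.

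Both ZNF208 and ZNF536 were called in each fit that left out 1 library, and ZNF536 was not tested at a mean count of at least 50. Among uncalled genes of high level, the sign turned with 1 library left out for ZNF562 (-0.02 to 0.05), ZNF791 (-0.03 to 0.05), ZNF146 (-0.07 to 0.04), ZNF528 (-0.01 to 0.14), ZNF28 (-0.18 to 0.02) and ZNF347 (-0.10 to 0.09), and without both replicate 1 libraries for ZNF791 (-0.01) and ZNF347 (-0.03). A gap of 0.5 Mb gave 10 clusters and one of 2 Mb gave 6, in place of 9. Members under about 10 counts per library are limited by depth.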
